A study of Mus musculus with 8 samples.

Results

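The 10 immunoglobulin constant-region genes examined here are those named Ighm, Ighd, Ighg3, Ighg1, Ighg2b, Ighg2c and Igha for the heavy chain and Igkc, Iglc1 and Iglc2 for the light chains. They were picked out by gene name, and all 10 were found among the 47493 genes of the table. The 8 RNA libraries came from 4 C57BL/6 mice, females of 6 to 8 weeks. Every mouse carried B16-F10 melanoma (200000 cells on day 0) and received cyclophosphamide (300 mg/kg, day 3), 2000000 Thy1.1 Pmel-1 T cells (day 5), human IL-2 (10000 IU a day for 3 days from day 5) and the CD4-depleting antibody GK1.5 (200 μg weekly for 3 weeks from day 10), so no comparison without these agents can be made. On day 25, Thy1.1-negative endogenous CD8+ T cells of inguinal lymph nodes and spleen were isolated with beads and split on a column into IL-18Rαhi-enriched cells and the flow-through, with 4 libraries of each. Libraries of both fractions are numbered 1 to 4. Those with the same number were taken to come from the same mouse and are compared below as mice 1 to 4. All values are FPKM, which are divided by transcript length, and levels of different genes are therefore compared per length.

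Antibodies consist of paired heavy and light chains, and the constant region of the heavy chain sets the class. A naive B cell makes the μ and δ heavy chains from the same primary transcript by alternative splicing, and class switching later replaces them by a γ, ε or α region that lies downstream in the locus. The light chain is either κ or λ. Antibody-secreting cells transcribe these genes at very high levels, end the heavy-chain mRNA at the secreted form and largely stop making δ. CD8+ T cells do not make antibody. In bulk RNA, fewer cells of a type and less RNA per cell cannot be told apart.

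In the mm10 genome (GENCODE M21 annotation), the heavy-chain genes lie on the minus strand of chromosome 12 in the order Ighm (chr12:113418558-113422730), Ighd (chr12:113406604-113416324), Ighg3 (chr12:113356224-113361232), Ighg1 (chr12:113325240-113330523), Ighg2b (chr12:113302965-113307933), Ighg2c (chr12:113285325-113288932) and Igha (chr12:113254830-113260236). Igkc lies on the plus strand of chromosome 6 (chr6:70726435-70726966). Iglc1 (chr16:19061618-19062071) and Iglc2 (chr16:19198396-19200351) lie on the minus strand of chromosome 16. All are annotated as constant-region genes.

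The secreted μ and α chains end in a tailpiece that the γ chains lack, and its cysteine next to the end binds the J chain that joins IgM and IgA into polymers. The last 60 coding bases of the annotated secreted forms are shown because the IgM and IgA values below are set beside the J-chain gene. They lie in the last coding exon, at chr12:113420870-113420929, chr12:113258771-113258830 and chr12:113306392-113306451, and are written 5′ to 3′ on the coding strand with the penultimate codon in capitals.
Ighm: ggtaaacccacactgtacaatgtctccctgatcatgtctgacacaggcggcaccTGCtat
Igha: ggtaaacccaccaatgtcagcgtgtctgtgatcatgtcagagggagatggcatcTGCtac
Ighg2b: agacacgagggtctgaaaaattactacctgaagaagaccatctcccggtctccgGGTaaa
The codon is TGC, for cysteine, in Ighm and Igha and GGT, for glycine, in Ighg2b. The secreted form of Ighm has 4 coding exons and the membrane form 6, but the table gives 1 value per gene, so the forms were not separated.

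The γ genes resemble each other, as do the λ genes, to differing extents, which bears on how a 150-base read is assigned. The first 90 bases of the λ constant exons (chr16:19198762-19198851, chr16:19065591-19065680 and chr16:19061981-19062070) are shown with capitals where a base differs from Iglc2.
Iglc2: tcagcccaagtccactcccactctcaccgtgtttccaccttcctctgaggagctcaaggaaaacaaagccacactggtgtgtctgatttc
Iglc3: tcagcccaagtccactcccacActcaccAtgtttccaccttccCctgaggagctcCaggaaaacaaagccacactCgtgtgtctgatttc
Iglc1: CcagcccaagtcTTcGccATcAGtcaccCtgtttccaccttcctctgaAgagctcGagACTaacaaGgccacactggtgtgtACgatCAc
Over the whole coding sequence Iglc2 and Iglc3 share 96.5% of aligned bases, with a longest identical run of 79 bases, whereas Iglc2 and Iglc1 share 74.8% and a run of 19. The same stretch of the first constant exon of the most similar γ pair (chr12:113307842-113307931 and chr12:113288841-113288930) has 8 differences.
Ighg2b: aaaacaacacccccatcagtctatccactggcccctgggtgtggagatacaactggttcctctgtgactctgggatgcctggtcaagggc
Ighg2c: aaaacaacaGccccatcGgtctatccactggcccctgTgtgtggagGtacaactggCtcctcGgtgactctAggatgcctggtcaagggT
Ighg2b and Ighg2c share 86.3% of aligned coding bases and a longest run of 78, and the other γ pairs share 76.1% to 78.7%. Values of Iglc2, Iglc3, Ighg2b and Ighg2c are uncertain to the extent that reads were split between copies.

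The preparations were checked first. The 8 T-cell identity genes, such as Cd8a and Cd3e, summed to 1337 FPKM in the flow-through of mouse 1 and to 2144 to 2724 FPKM in the other 7 libraries. Erythroid genes, mainly globins, summed to 1055 and 1146 FPKM in mouse 1 and to 117 to 566.5 FPKM in the other mice. Estimated depth was 15900000 to 18800000 fragments. Without the flow-through library of mouse 1, the log2 fold changes of the fit without the mouse, given below, were 0.30 for Ighm, 0.28 for Igkc, 0.32 for Iglc2, 0.21 for Igha and -0.044 for Iglc1. Without both libraries of mouse 1, the fit with the mouse as a block gave 0.63 for Ighm (adjusted p = 0.0028), 0.62 for Igkc (adjusted p = 0.0033), 0.52 for Iglc2 (adjusted p = 0.0307), 0.36 for Igha (adjusted p = 0.0352) and 0.26 for Iglc1 (adjusted p = 0.0571).

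Constant-region RNA was present in every library. The 10 genes together made up 0.969%, 3.74%, 1.80% and 3.09% of all FPKM in the flow-through of mice 1 to 4, and 1.77%, 4.96%, 3.12% and 4.58% in the enriched fraction. Mouse 2 was highest and mouse 1 lowest in both fractions, and the enriched fraction was higher in all 4 mice. The order of the mean levels was the same in both fractions, running from Igkc through Ighm, Igha, Iglc1, Iglc2, Ighg2b, Ighg2c and Ighg3 to Ighg1 and Ighd. Within a library, Igkc exceeded Ighm, Ighm exceeded Igha, Igha exceeded Iglc1 and Ighg3 exceeded Ighg1 in 8 of 8 libraries. Neighbors whose order changed between libraries were Iglc2 and Ighg2b (4 and 3 of 4 libraries in that order in the enriched and the flow-through fraction), Ighg2b and Ighg2c, Ighg2c and Ighg3, and Ighg1 and Ighd. Over the 4 mice of a fraction the ranges of most neighbors overlapped.

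**Figure D1:**
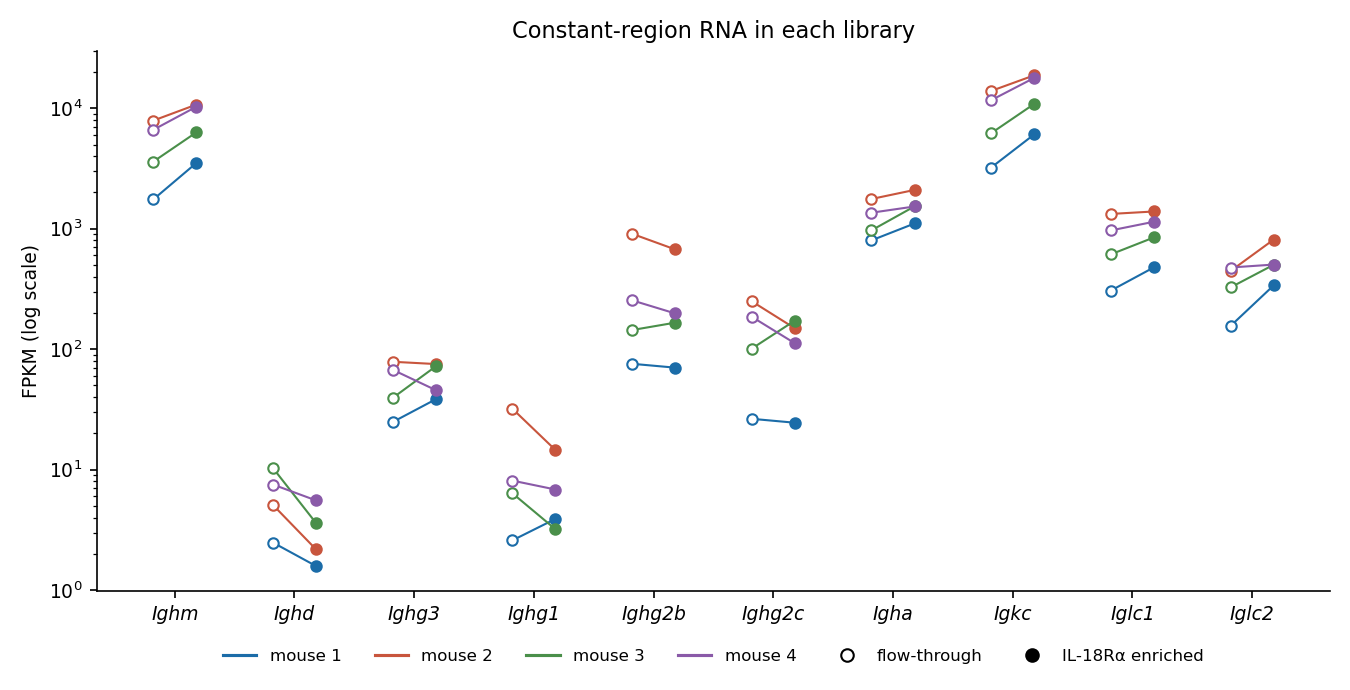
FPKM of the 10 constant-region genes on a log axis, with a line joining the flow-through (open circle) and enriched (filled circle) libraries of each mouse. The lines of Ighm and Igkc all rise, those of Ighd all fall, and the order of the mice is kept between fractions for Ighm, Igkc, Iglc1 and Ighg2b.

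Ighm encodes the μ chain of IgM. Its level in the flow-through was 1749, 7896, 3602 and 6618 FPKM in mice 1 to 4. In the enriched fraction it was 3513, 10726, 6309 and 10295 FPKM. The fractions overlapped because the mice differed, yet the enriched library was higher in every mouse, by 1.36 to 2.01 times. Without the mouse in the fit, the log2 fold change was 0.72 ± 0.52 (SE, n = 4 mice per fraction, limma adjusted p = 0.326), and with the mouse as a block it was 0.72 with a 95% interval of 0.46 to 0.99 (adjusted p = 0.0029). In that blocked fit Ighm was 1.65 times higher on the log2(FPKM + 1) scale.

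Ighd encodes the δ chain, which accompanies μ on naive B cells. It was at 2.48, 5.10, 10.3 and 7.53 FPKM in the flow-through of mice 1 to 4 and at 1.59, 2.18, 3.61 and 5.56 FPKM after enrichment. Its level was far under that of Ighm in every library and was lower in the enriched library of all 4 mice. The log2 fold change was -0.76 ± 0.40 (SE) without the mouse (adjusted p = 0.186) and -0.76 with it (95% interval -1.16 to -0.36, adjusted p = 0.0112). Across the mice the δ level did not follow the μ level: mouse 3 had the highest Ighd in the flow-through while mouse 2 had the highest Ighm.

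The γ genes encode the 4 IgG subclasses of this strain. Ighg2b was highest among them, at 75.7, 908, 144 and 255 FPKM in flow-through libraries 1 to 4 and 70.3, 673, 166 and 198 FPKM in their enriched counterparts. Mouse 2 stood above the other mice in both fractions, and 3 of 4 mice were lower in the enriched library. For Ighg2c the flow-through values were 26.4, 249.8, 101.1 and 186 FPKM and the enriched values 24.5, 149, 173 and 112 FPKM. Ighg3, the subclass known for responses to bacterial polysaccharide, was between 24.8 and 78.7 FPKM before enrichment and between 38.4 and 75.3 FPKM after it. Ighg1 was at 2.59, 32.1, 6.38 and 8.12 FPKM in the flow-through and at 3.90, 14.6, 3.202 and 6.85 FPKM after enrichment. No IgG subclass passed the test with the mouse as a block: the log2 fold changes were 0.21 for Ighg3, -0.42 for Ighg1, -0.17 for Ighg2b and -0.20 for Ighg2c, with adjusted p of 0.467, 0.199, 0.244 and 0.535. Their 95% intervals reached from -0.32 to 0.74, -0.99 to 0.16, -0.44 to 0.09 and -0.78 to 0.38. Without mouse 1 the blocked log2 fold change of Ighg1 was -0.71 (adjusted p = 0.0182), and without mouse 3 that of Ighg2c was -0.52 (adjusted p = 0.0436).

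Igha encodes the α chain of IgA, the class of mucosal secretions, and was the second most abundant heavy-chain gene. Its flow-through values were 801, 1766, 970.0 and 1359 FPKM and its enriched values 1106, 2099.7, 1534 and 1530.2 FPKM in mice 1 to 4. It varied least among mice, by 2.62 times from the lowest to the highest library, compared with 6.13 times for Ighm and 12.9 times for Ighg2b. Each mouse was higher in the enriched fraction, by 1.13 to 1.58 times. With the mouse as a block the log2 fold change was 0.39 (95% interval 0.15 to 0.62, adjusted p = 0.0183), and without it the adjusted p was 0.313. Leaving out mouse 3 gave a blocked adjusted p of 0.0994 for Igha, and leaving out any other mouse gave 0.0315 to 0.0352.

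Among the light chains, Igkc encodes the κ constant region and was the most abundant member. It was at 3222, 13927, 6212 and 11671 FPKM in the flow-through of mice 1 to 4, and enriched libraries held 6077, 18779.8, 10882 and 17884 FPKM. Igkc was higher in the enriched library of every mouse, by 1.35 to 1.89 times, and its blocked log2 fold change was 0.69 (95% interval 0.44 to 0.95, adjusted p = 0.0032). Iglc1 encodes the λ1 constant region and was at 307, 1327, 613 and 968 FPKM in the flow-through and at 478, 1391, 847 and 1143 FPKM after enrichment. Its blocked log2 fold change was 0.35 (95% interval 0.11 to 0.60, adjusted p = 0.0313), and leaving out mouse 1, 3 or 4 gave adjusted p of 0.0571, 0.132 and 0.0729. Iglc2, the λ2 constant region, was at 156, 446, 326 and 477 FPKM in the flow-through and at 339, 813, 502 and 504 FPKM after enrichment, a blocked log2 fold change of 0.67 (95% interval 0.29 to 1.05, adjusted p = 0.0144). Leaving out mouse 2 gave an adjusted p of 0.0507 for Iglc2.

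All 10 genes were tested. Without the mouse in the fit, 0 of 10 members passed an adjusted p of 0.05, and 0 of 10 had an unadjusted p under 0.05, whereas 27.8% of all 12166 tested genes were called. The fractions overlapped for all 10 members, and 32.3% of all genes did not overlap. With the mouse as a block, 6 of 10 members were called, 5 higher and 1 lower, beside 44.9% of all genes, 22.2% higher and 22.7% lower. The same 5 members were higher in 4 of 4 mice (29.2% of all genes were) and Ighd was lower in 4 of 4 (30.6% of all genes). The median log2 fold change over the members was 0.28, and over all genes it was -0.02. The mouse accounted for 79.9% of the variance of log2(FPKM + 1) of Ighm and the fraction for 18.5%, while for Ighg2b these shares were 98.5% and 0.488%.

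T-cell RNA also differed between libraries, so the fit was repeated after each library was divided by a T-cell factor. The factor was the geometric mean of the library's T-cell identity genes, scaled to a geometric mean of 1 over all libraries. The division moved the median of all genes to -0.32. With the mouse as a block, Ighm was then at a log2 fold change of 0.38 (adjusted p = 0.0661) and Igkc at 0.35 (adjusted p = 0.072), 0 of 10 members were called higher (5.18% of all genes were), and Ighd (-1.01, adjusted p = 0.0018) and Ighg1 (-0.68, adjusted p = 0.0444) were called lower (18.2% of all genes, and 23.4% in either direction). The flow-through of mouse 1 has a T-cell factor of 0.576, against 0.922 to 1.17 in the other libraries. When both libraries of mouse 1 were left out, T-cell scaling gave 0.52 for Ighm (adjusted p = 0.00051), 0.51 for Igkc (adjusted p = 0.00045) and 0.41 for Iglc2 (adjusted p = 0.0257), with Ighd at -0.96 (adjusted p = 0.0009), Ighg1 at -0.79 (adjusted p = 0.0017) and Ighg2b at -0.31 (adjusted p = 0.0496). In that fit 6 of 10 members were called, beside 37.0% of all genes, 13.4% higher and 23.6% lower. Under this scaling Ighm, Igkc and Iglc2 were thus called higher only without mouse 1, while Ighd and Ighg1 were called lower with and without it.

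**Figure D2:**
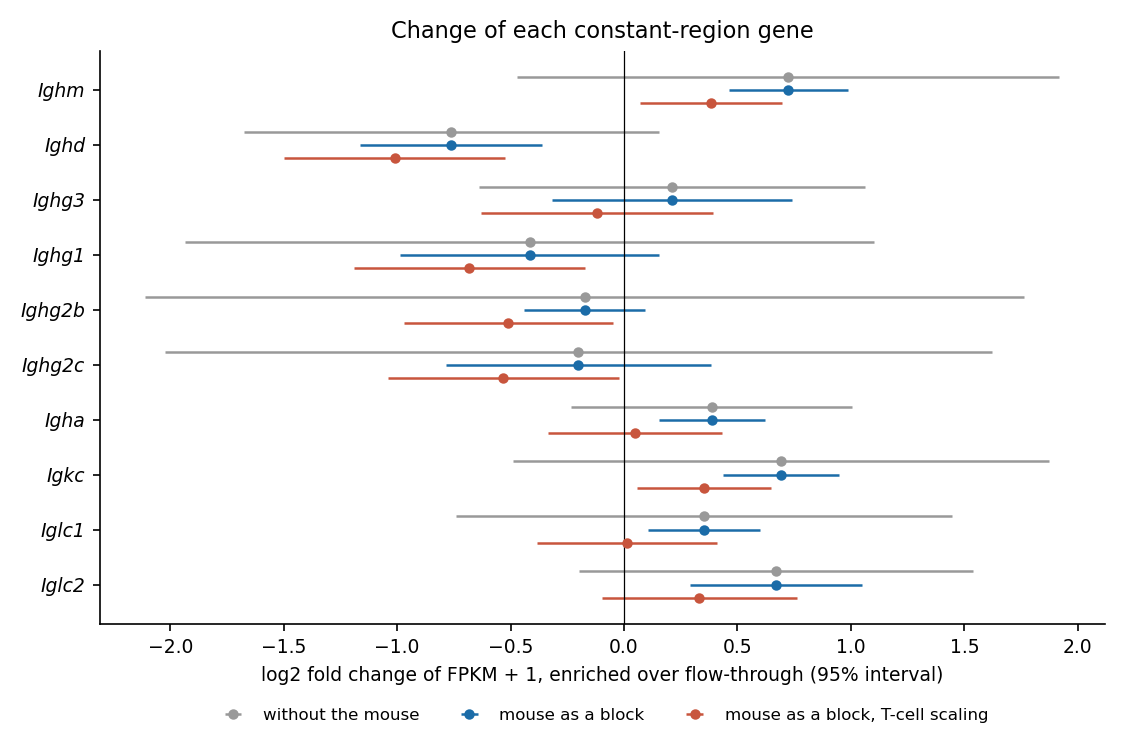
Log2 fold change of each gene, enriched over flow-through, with 95% intervals from limma, for the fit without the mouse (gray), with the mouse as a block (blue) and with the mouse as a block after T-cell scaling (red). Blue intervals lie above 0 for Ighm, Igha, Igkc, Iglc1 and Iglc2 and below 0 for Ighd, gray intervals all include 0, and red points are shifted to the left.

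Shares do not depend on the scaling of a library. They describe the class composition of the constant-region RNA, not that of the cells. IgM made up most heavy-chain constant RNA: the share of Ighm was 65.2%, 72.2%, 73.9% and 77.9% in the flow-through and 73.8%, 78.1%, 76.4% and 84.4% in the enriched fraction of mice 1 to 4. It was higher in all 4 mice, by a mean of 5.88 percentage points, which the exact two-sided permutation test did not separate from the spread (p = 0.143, 0.267 after adjustment over 14 quantities). The difference was 3.52 points without the flow-through library of mouse 1 and 4.97 points without both libraries of that mouse. The exact sign-flip test, which pairs the fractions by mouse, gave 0.125, the smallest p that 4 mice allow, for each share or ratio below that moved the same way in all 4 mice, 0.25 for the shares of Ighg3 and Ighg2c and 1.0 for that of Iglc2. Igha followed with 29.9%, 16.1%, 19.9% and 16.0% in the flow-through and 23.2%, 15.3%, 18.6% and 12.6% after enrichment. Its share was lower in the enriched library of all 4 mice, with a mean difference of -3.06 points (exact permutation p = 0.457). The flow-through of mouse 1 had the highest IgA share. Without both libraries of mouse 1 the means were 17.3% and 15.5%, lower in 3 of 3 mice, and without that flow-through library alone the difference was 0.065 points. The IgG genes, from 0.0388% for Ighg1 to 8.30% for Ighg2b, and Ighd filled the rest.

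**Figure D3:**
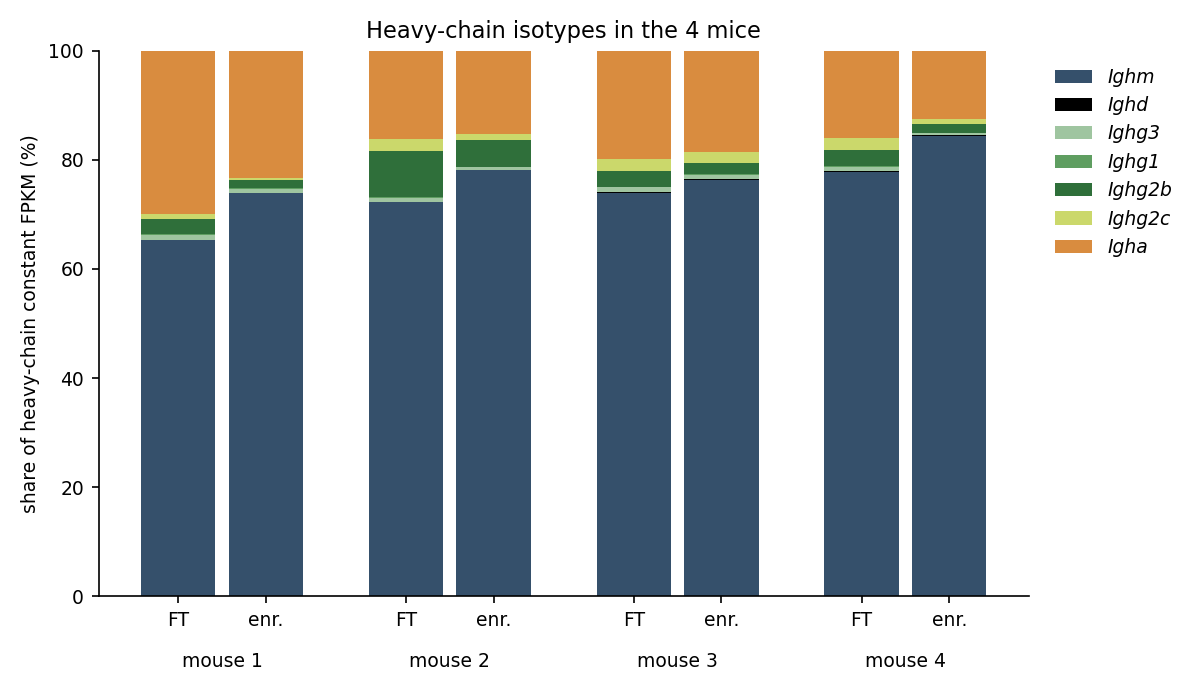
Shares of the 7 heavy-chain genes in their summed FPKM, stacked, with the flow-through (FT) and enriched (enr.) library of each mouse side by side. The Ighm block is taller in the enriched bar of every mouse, from 65.2% to 84.4% over all libraries, and Ighd and Ighg1 are too thin to be seen.

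Switched classes, meaning the γ and α genes together, made up 34.7%, 27.75%, 25.9% and 22.1% of heavy-chain constant RNA in the flow-through and 26.1%, 21.9%, 23.6% and 15.5% in the enriched fraction. They were lower in every enriched library than in the flow-through of the same mouse, with a mean difference of -5.81 points, and the ranges overlapped (exact permutation p = 0.171, adjusted 0.267). With Ighd at 0.212% or less, the switched share is nearly the remainder of the Ighm share, so its fall is not a separate result. The share of Ighg2b was 2.82%, 8.30%, 2.96% and 2.99% in the flow-through and 1.48%, 4.90%, 2.01% and 1.62% in the enriched fraction. It was lower in 4 of 4 mice (exact permutation p = 0.371), with mouse 2 well above the others in both fractions. Ighg1 also had a lower share in 4 of 4 mice (0.154% ± 0.0943 against 0.0707% ± 0.0295, SD, exact permutation p = 0.0857), and Ighg2c and Ighg3 in 3 of 4 mice each.

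The ratio of δ to μ separated the fractions. Ighm exceeded Ighd 704, 1549, 349 and 879 times in the flow-through and 2216, 4921, 1749 and 1852 times in the enriched fraction of mice 1 to 4. No enriched library overlapped the flow-through, and within a mouse the ratio differed by 2.11 to 5.01 times. As log2 of Ighd over Ighm, the means were -9.57 ± 0.89 and -11.25 ± 0.69 (SD), a difference of -1.68 with the smallest exact permutation p that 4 against 4 libraries allow (0.0286, adjusted 0.133 over the 14 quantities). Ighd as a share of heavy-chain RNA largely restates this ratio and gave the same separation. It was 0.0466% to 0.212% in the flow-through and 0.0159% to 0.0456% in the enriched fraction (exact permutation p = 0.0286, adjusted 0.133).

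Among light chains κ prevailed in every library. Igkc made up 87.4%, 88.7%, 86.9% and 89.0% of light-chain constant RNA in the flow-through and 88.1%, 89.5%, 89.0% and 91.6% in the enriched fraction, higher in 4 of 4 mice (exact permutation p = 0.171, adjusted 0.267). The share of Iglc1 was 8.33%, 8.45%, 8.57% and 7.38% in the flow-through and 6.94%, 6.63%, 6.93% and 5.85% after enrichment. These 4 enriched values all lay under the 4 flow-through values, a difference of -1.60 points (exact permutation p = 0.0286, adjusted 0.133). The share of Iglc2, by contrast, moved up in 2 mice and down in 2, with a mean difference of 0.05 points (exact permutation p = 0.971). The ratio of κ to λ was 6.61 to 8.08 in the flow-through and 7.43 to 10.9 in the enriched fraction, and that of light to heavy constant RNA was 1.37 to 1.54 and 1.45 to 1.60. Both ratios were higher in the enriched fraction of 4 of 4 mice, with exact permutation p of 0.171 and 0.286. The ratio of κ to λ restates the share of Igkc and is not a separate result.

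**Figure D4:**
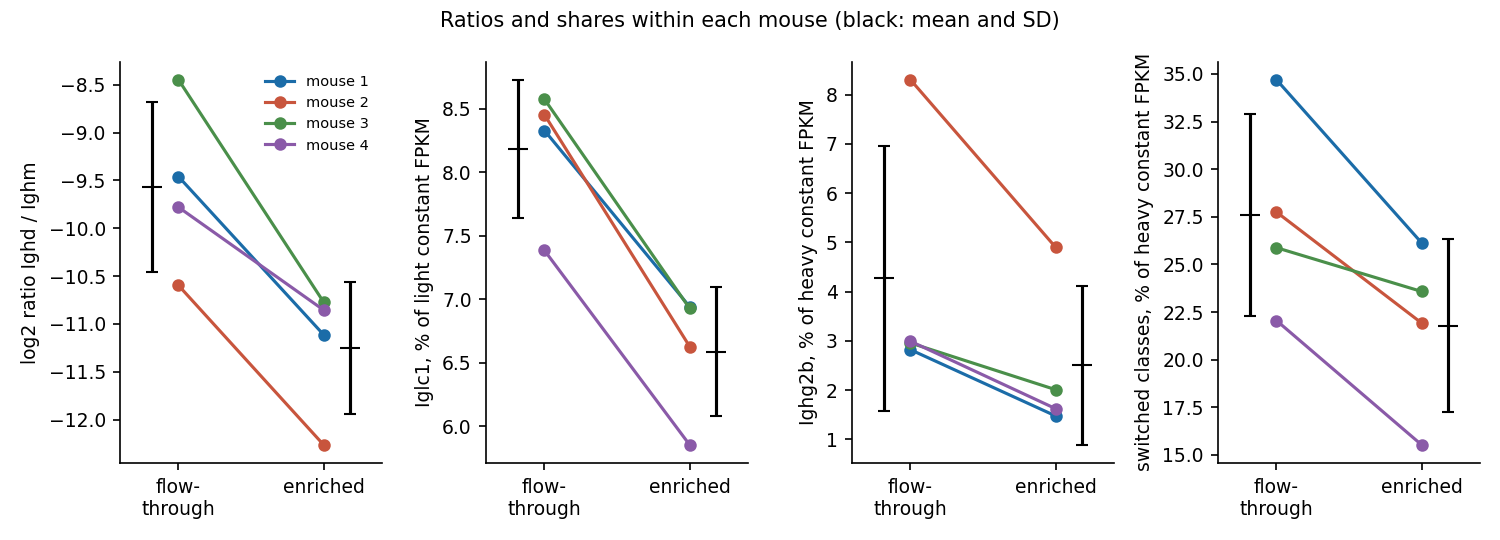
The log2 ratio of Ighd to Ighm and the shares of Iglc1, Ighg2b and the switched classes (y axes, which do not start at 0) in the flow-through and the enriched library of each mouse, with means and SD in black. All lines fall, the fractions do not overlap in the first and the second panel, and mouse 2 stands apart for Ighg2b at 8.30% and 4.90%.

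Levels were also set against Ighm within each mouse. The ratio of Igkc to Ighm was 1.72 to 1.84 in all 8 libraries although Ighm varied 6.13 times and Igkc 5.83 times. Iglc1 lost 0.34 to 0.40 on the log2 scale relative to Ighm in every mouse, and Igha lost 0.15 to 0.54. Ighg2b lost 0.60 to 1.11, Ighg1 0.41 to 1.80, Ighd 1.08 to 2.33 and Ighg2c 0.04 to 1.37, each in 4 of 4 mice. Ighg3 ranged from -1.20 to 0.06 and Iglc2 from -0.56 to 0.42, so the ranges of the members overlapped. Because these are ratios within a library, they show unequal change and not which gene changed.

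Other constant-region genes of the table are few. Ighe, the ε gene of IgE, was at 0.759 FPKM or less in every library and Iglc4 at 1.22 FPKM or less. Iglc3, the near copy of Iglc2, was at 51.9, 189, 112 and 153 FPKM in the flow-through and at 125, 179.0, 193 and 214 FPKM after enrichment, with a blocked log2 fold change of 0.61 (adjusted p = 0.0421).

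Genes of antibody-secreting cells were examined next. Jchain, which encodes the J chain that binds the tailpiece cysteine shown above, was at 272, 1171, 528 and 923 FPKM in the flow-through, and enriched libraries held 493, 1381, 883 and 1355 FPKM. The ratio of Jchain to Ighm was 0.129 to 0.156 over the 8 libraries. It was lower in the enriched library of 4 of 4 mice, at 0.869 to 0.956 times the flow-through. Of the 10 plasma-cell genes, all were tested and 8 were called higher with the mouse as a block (Jchain, Mzb1, Derl3, Xbp1, Sdc1, Tnfrsf17, Irf4 and Prdm1), 1 was lower (Ell2, an elongation factor that favors the secreted heavy-chain form, -0.53, adjusted p = 0.0295) and Fkbp11 was not called. Without the mouse the calls were Prdm1 (log2 fold change 1.18, adjusted p = 0.0032) and Irf4 (1.10, adjusted p = 0.0063), transcription factors that activated T cells also use. After T-cell scaling with the mouse as a block, 2 were higher (Irf4 and Prdm1) and 1 lower. When both libraries of mouse 1 were left out, that fit called 8 higher and 1 lower, beside 13.4% and 23.6% of all genes. Of all genes, 22.2% were higher and 22.7% lower in the blocked fit, and 5.18% and 18.2% after T-cell scaling. In the fit without the mouse, 14.1% of all genes were higher. The median log2 fold change of the list was 0.71, and that of all genes was -0.02.

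B-cell genes were low beside the constant regions. Ms4a1, which encodes CD20, was at 0.668 to 4.76 FPKM over all libraries. Cd79a, the signaling chain of the B-cell receptor, was at 5.38 to 25.5 FPKM, so that Ighm exceeded it 200.1 to 653 times. Of 15 B-cell genes, 11 were tested. With the mouse as a block, 4 were higher (Cd22, Cd79b, Spib and Cd37) and 2 lower (Cr2, the complement receptor of mature B cells, and Cd72), while Cd22 (log2 fold change 0.98, adjusted p = 0.0076) was the only call without it. Over all genes 22.2% were higher and 22.7% lower in the blocked fit. After T-cell scaling with the mouse as a block, 1 was higher (Cd22) and 2 lower (Cr2 and Cd72), beside 5.18% and 18.2% of all genes. The median log2 fold change was 0.24, and that of all genes was -0.02.

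**Figure D5:**
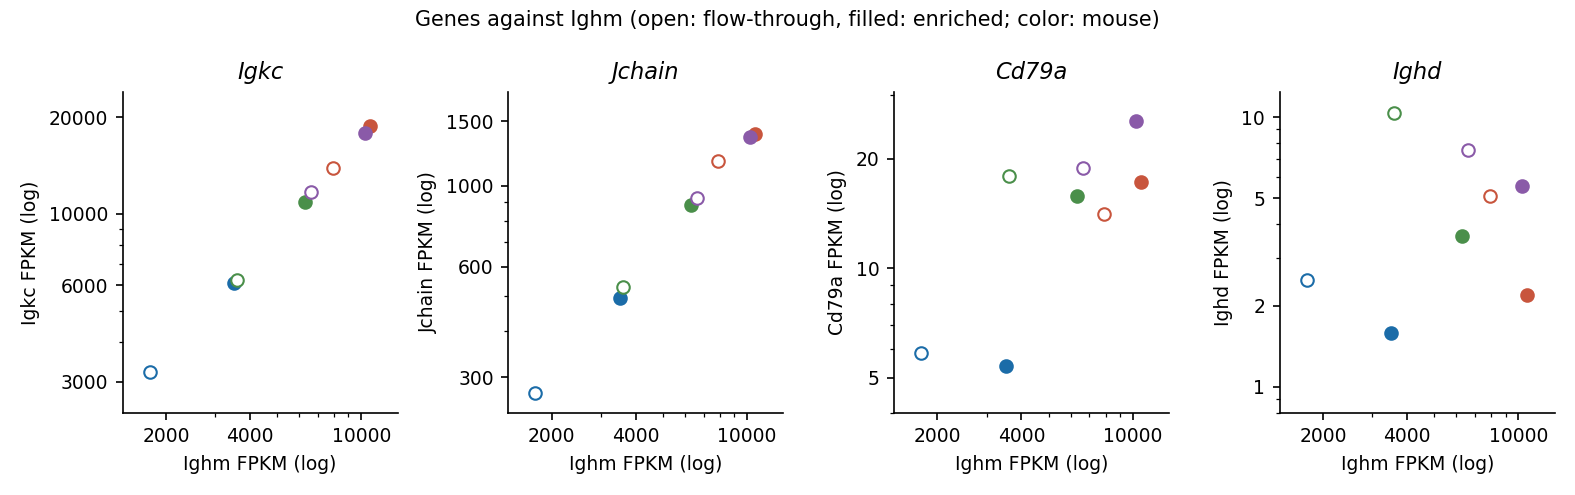
FPKM of Igkc, Jchain, Cd79a and Ighd (y axes) against that of Ighm (x axis), all on log axes, in the 8 libraries, with flow-through open, enriched filled and a color per mouse. Igkc and Jchain lie on a line with Ighm, while Cd79a and Ighd scatter, Ighd between 1.59 and 10.3 FPKM.

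Class switching draws on base-excision, mismatch-repair and end-joining factors. Of the 13 class-switch genes tested, 2 were lower without the mouse (the repair nuclease gene Apex1, -0.76, adjusted p = 0.0042, and the Ku subunit gene Xrcc6, -0.55, adjusted p = 0.048) and 4 with it (Apex1, Xrcc6 and Xrcc5 among them), beside 13.7% and 22.7% of all genes called lower, and 0 were higher in either fit (0 also at an unadjusted p under 0.05). After T-cell scaling with the mouse as a block, 2 were lower, beside 18.2% of all genes. These factors serve DNA repair in all dividing cells.

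Among the receptors that bind antibody, 8 of 11 genes were tested. Fcer1g, the signaling chain shared by several Fc receptors, ranged from 27.1 to 76.9 FPKM in flow-through libraries and from 65.3 to 143 FPKM in enriched libraries (log2 fold change 1.15, adjusted p = 0.0425). With the mouse as a block, 6 were called higher, namely Fcer1g, Fcgr3, Fcgrt, Fcgr2b, Fcer1a and Fcgr1, beside 22.2% of all genes. After T-cell scaling 3 remained (Fcer1g, Fcer1a and Fcgr1), beside 5.18% of all genes. The IgM receptor gene Fcmr had a blocked log2 fold change of -0.02. Fcamr and Pigr, receptors for polymeric IgA and IgM, were at 0.0778 FPKM or less.

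Genes used as markers of other cells also differed between the fractions. The NK markers are not specific to NK cells here. The paper reports Ncr1 and Klrb1c as raised in the enriched T cells and relates NK receptor genes to T-cell activation. With the mouse as a block, 5 of 5 myeloid, 4 of 5 dendritic and 3 of 4 NK markers were higher in the enriched fraction, and their summed levels were 114 to 390 against 377 to 884 FPKM, 11.7 to 17.6 against 24.3 to 47.9 FPKM, and 11.98 to 22.4 against 32.6 to 74.2 FPKM. Of 5 erythroid markers, 2 were lower with the mouse as a block and 3 after T-cell scaling, and their summed level was lower in the enriched fraction of 3 of 4 mice. No marker of these lists was at 0 in all libraries. Among all genes, 22.2% were higher and 22.7% lower with the mouse as a block, and 18.2% were lower after T-cell scaling. The summed level of the 5 plasma-cell markers was 293 to 1236 FPKM in flow-through libraries and 532 to 1476 FPKM in enriched libraries, and that of the 6 B-cell markers was 24.4 to 62.9 and 40.4 to 81.9 FPKM. The part of these cells in the differences of the constant-region genes was not tested.

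The genes most alike to each member were found by Pearson r of log2(FPKM + 1) over the 8 libraries, which come in pairs from 4 mice, among 11955 candidates without immunoglobulin genes. Ighm was closest to Jchain (r = 0.998), Pak1 (0.995), Mzb1 (0.991), Tcirg1 (0.990) and Tnfrsf13b (0.989), and Igkc to Jchain (0.998), Pak1 (0.996), Tnfrsf13b (0.991), Mzb1 (0.989) and Tpd52 (0.988). Mzb1 is a chaperone of antibody assembly and Tnfrsf13b encodes the receptor TACI. Ighg2b was instead closest to Prtn3 (0.994), Ctsg (0.988), Mpo (0.987), Dtx4 (0.987) and Ms4a3 (0.982), of which Prtn3, Ctsg and Mpo encode granule proteins of immature neutrophils. Igha was closest to Mefv (0.992), Igsf6 (0.988), Gxylt1 (0.987), Clec5a (0.987) and Mgst1 (0.986). Iglc1 was closest to Oser1 (0.984), Cerk (0.984), Pwwp2b (0.984), Jchain (0.984) and Neil1 (0.982), and Iglc2 to Vgll4 (0.991), H13 (0.981), Ndst1 (0.977), Sdccag8 (0.977) and Stat3 (0.977).

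For the low members, as for Igha, Iglc2 and Ighg2b, the closest genes were of no B-lineage list. They were Ss18l1 (0.988), Zfp472 (0.977), Zbtb11 (0.967), Tmem147os (0.952) and Cd2ap (0.947) for Ighd, and Zhx3 (0.976), Plac8 (0.951), Gng11 (0.944), Il12a (0.943) and Fbxl5 (0.940) for Ighg1. Ighg3 was closest to Camta2 (0.976), Ap1g2 (0.963), A430078G23Rik (0.957), Cmas (0.950) and Erbb2ip (0.950), and Ighg2c to Naglu (0.982), G0s2 (0.977), Erbb2ip (0.973), Zfyve16 (0.961) and Oasl2 (0.960). Each member had a gene at an r of 0.976 or more among this many candidates over 8 points, so likeness at this level singles out no member. Between members, r was 0.9995 for Ighm and Igkc, 0.94 for Ighm and Igha, 0.77 for Ighm and Ighg2b and 0.18 for Ighm and Ighd.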

How the data were processed

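RNA sequencing was done on 8 libraries, 4 per fraction. Per the labels and the study's methods, stranded poly(A) libraries were sequenced as 150-base paired ends, mapped to mm10 with TopHat and quantified with Cufflinks 2.1.1, with correction for multiply mapped reads and fragment bias. The strand was not used by default. The authors deposited FPKM, so no count test was applied. Depth was estimated from low genes (under 0.2 FPKM, 1 transcript, 1500 bases or longer), assuming 200-base fragments.

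The test was limma's (version 3.58.1, R 4.3.3), fitted to log2(FPKM + 1) with a variance trend. It covered the 12166 genes whose mean reached 1 FPKM, with Benjamini-Hochberg adjustment over all of them (threshold 0.05). This scale understates changes of low genes. The study's methods state no block. The labels number both fractions 1 to 4, and same-numbered libraries were taken to come from the same mouse. Their deviations from the fraction means correlated at 0.66, 0.59, 0.31 and 0.47 across genes. Libraries of unlike number correlated at -0.60 to 0.41, the highest being flow-through 2 with enriched 4. On this pairing, the limma fit with the mouse as a block is given beside each gene, and the paired sign-flip test beside the shares. For shares and ratios, the exact two-sided permutation test used all 70 arrangements. Alternatives were other scalings, pseudocounts, filters and leaving out libraries.

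Of genes with more than 1 row under a name, the row with the higher mean was used. Named genes were the members, genes of the lists that a count turned on, the other constant-region genes and the 5 closest genes by r. Members and lists were chosen with earlier results of these data known. Annotation and sequences are from GENCODE M21 (GRCm38), coding parts only, aligned with Biopython 1.88. A few list genes are counted but left unnamed, as they are not reported here.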

Additional observations from a re-analysis of the deposited data

Results flagged for a closer look

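In groups of 4 libraries, a value was singled out when its gap to the nearest other library exceeded Dixon's 95% critical share of the group's range. Over 48 groups (10 FPKM values and 14 shares or ratios in each fraction) 3 values were, and chance alone gives about 1 in 20, or 2.4. The share of Ighg2b in heavy-chain constant RNA was 8.30% in the flow-through of mouse 2 against 2.82% to 2.99% in the other mice. It was also 4.90% in the enriched fraction of mouse 2 against 1.48% to 2.01%, so the same mouse stood apart in both fractions. The share of Ighg2c was 0.986% in the flow-through of mouse 1 against 2.08% to 2.28% in the other mice.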

How the results depend on the processing

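Without the mouse, scaling by T-cell genes, by the upper quartile or to a sum of 1000000, a pseudocount of 0.1, all genes with a value above 0, a mean of at least 5 FPKM, and leaving out any library all gave 0 of 10 members called. The replicate block gave 5 higher and 1 lower. Chosen after seeing the data, the block with upper-quartile scaling or with a pseudocount of 0.1 gave the same 5 and 1, and with T-cell scaling 0 and 2. Leaving out a pair in the blocked fit gave 3 to 4 members higher and 1 to 2 lower, and leaving out pair 1 with T-cell scaling added gave 3 and 3, so leave-outs of any kind spanned 0 to 4 higher and 0 to 3 lower. Of all 12166 genes, leaving out a pair in the blocked fit called 1841 to 2519 higher and 1715 to 2475 lower. Leaving out pair 1 with T-cell scaling added called 1631 and 2871. The block called 2819 and 2610 with upper-quartile scaling, 2683 and 2749 with a pseudocount of 0.1, and 630 and 2214 with T-cell scaling. Under the block, with upper-quartile scaling and with pseudocount 0.1, counts were 8, 8 and 8 higher and 1, 1 and 1 lower for plasma-cell genes, 4, 4 and 3 higher and 2, 2 and 2 lower for B-cell genes, 4, 4 and 4 lower for class-switch genes and 6, 6 and 6 higher for Fc-receptor genes. The block with T-cell scaling gave 1 plasma-cell gene lower, 2 B-cell genes lower and 3 Fc-receptor genes higher. Without the block, T-cell scaling gave 1 B-cell gene lower, 1 class-switch gene lower and 0 Fc-receptor genes higher, a sum of 1000000 gave 1 class-switch gene lower and 2 Fc-receptor genes higher, all values above 0 gave 1 and 0 of these, and a mean of at least 5 FPKM gave 1 plasma-cell gene higher. Leave-one-out ranges were 2 to 8 higher and 0 to 1 lower for plasma-cell genes, 1 to 3 and 0 to 2 for B-cell genes, 1 to 4 lower for class-switch genes and 0 to 6 higher for Fc-receptor genes. Over all genes and without the block, T-cell scaling called 522 higher and 927 lower, and a sum of 1000000 called 1817 and 1292. All values above 0 gave 1669 and 1283 of 22789 genes, and a mean of at least 5 FPKM 1338 and 1374 of 9329. Leaving out 1 library without the block called 1124 to 1802 higher and 940 to 1781 lower.

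The sign of Ighg3 turned under T-cell scaling without or with the block (-0.12 and -0.12), which also moved the median of all genes from -0.02 to -0.32, and it ranged from -0.094 to 0.47 over leave-outs. Leave-outs also turned Ighg1 (-0.88 to 0.19), Ighg2b (-0.76 to 0.50), Ighg2c (-0.86 to 0.42), Iglc1 (-0.044 to 0.66) and the share differences of Igha (-5.01 to 0.065 points) and Iglc2 (-0.30 to 0.48 points). Leaving out pair 1 or 2 gave -0.16 and -0.28 points for Iglc2. The cause was not tested. The share of Ighm differed by 3.52 to 7.74 points. The other shares and ratios kept their sign throughout: log2 Ighd over Ighm differed by -2.02 to -1.31, log2 κ over λ by 0.12 to 0.30, log2 light over heavy by 0.03 to 0.09 and the switched share by -7.65 to -3.44 points. Including Ighe, Iglc3 and Iglc4 changed no sign and no call. The exact sign-flip permutation test that pairs fractions by mouse cannot go below p = 0.125 with 4 mice, nor the exact permutation test of 3 against 4 libraries below 0.0571. FPKM carries no counts, so no counting interval was given.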
